A study of Mus musculus with 27 samples.

Results

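The genes described here are 9 Toll-like receptor genes, Tlr1, Tlr2, Tlr3, Tlr4, Tlr6, Tlr7, Tlr8, Tlr9 and Tlr13, together with Cd14, which encodes a co-receptor for bacterial lipopolysaccharide (LPS). They were taken by gene symbol from a table of 45070 genes, and all 10 were found and passed the filter on low values. The cells were bone marrow-derived macrophages (BMDMs), primary macrophages grown in culture from the marrow of wild type male C57/BL6 mice aged 6 to 8 wk. All 27 samples were first kept for 1 h with DMSO, the solvent used for drugs elsewhere in the study, so no group was free of it. The 9 groups of 3 replicates were untreated cells, cells given LPS at 10 ng/ml for 0.5, 1, 2 or 4 h, and cells given interleukin-4 (IL-4) at 10 ng/ml for the same times. RNA was isolated from the chromatin fraction, which is rich in transcripts still being made, and the values are read counts per gene that the authors normalised on a set of invariant genes and rounded.

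Toll-like receptors recognize parts of microbes and start inflammatory gene expression through the adaptors MyD88 and TRIF. TLR4 binds LPS together with its partner MD-2, and CD14 hands LPS over to this complex. TLR2 pairs with TLR1 or TLR6 at the cell surface to bind bacterial lipoproteins, whereas TLR3, TLR7, TLR8, TLR9 and TLR13 sit in endosomes and bind nucleic acids. LPS and IL-4 are the standard stimuli for inflammatory and alternative macrophage activation, respectively.

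The normalised totals were 2469768 to 2790981 without LPS (untreated or IL-4) and 3571492 to 4058199 in the LPS samples. Over the 13901 genes tested, the median log2 change after LPS was -0.245, -0.305, -0.287 and -0.258 in order of time, so a gene with no change on the deposited scale lay above the typical gene. When the samples were rescaled by median of ratios these medians lay between -0.052 and -0.003, and when all totals were made equal they lay between -0.911 and -0.729. At 0.5 h of LPS the genes called higher and lower numbered 2718 and 4775 as deposited, while rescaling by median of ratios gave 3580 and 3762, and equal totals gave 1621 and 7258. Every change below is on the deposited scale unless a rescaling is named. The summed level of 8 macrophage markers was 10027 to 11141 in untreated samples, 11122 to 19679 after LPS and 10976 to 14044 after IL-4. These 8 did not move together under LPS. The medians of Csf1r, Mertk and Lyz2 went from 2048, 1847 and 917 to 690, 1311 and 551. Those of Cd68 and Itgam went from 115 and 741 to 97 and 720. The medians of Adgre1, Spi1 and Fcgr1 rose from 4175, 474 and 85 to 6775, 1459 and 355. T cell and B cell markers summed to at most 3 and 8 in any sample, and Cd3e, Cd3g and Ly6g were at 0 in all of them. The 6 granulocyte markers summed to 4 to 10 in untreated cells, 8 to 76 after LPS and 4 to 18 after IL-4. The 4 dendritic cell markers summed to 11 to 20, 17 to 99 and 13 to 31 in the same order, and 3 stromal markers to 39 to 91, 43 to 278 and 28 to 208. Within these lists the genes differed after LPS. Ngp and S100a8 reached 57 and 16, and the other granulocyte markers at most 5. Zbtb46 and Clec9a reached 90 and 42, Flt3 and Siglech 6 and 2. The median of Pdgfrb went from 2 to 39, and those of Col1a1 and Col1a2 from 27 and 30 to 19 and 26. The part of these other cells in the changes below was not tested. In bulk samples, fewer cells of a type and less RNA per cell cannot be told apart.

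In untreated BMDMs the 10 genes differed widely in level. Per kb of gene span, Tlr7 was highest at 35.2 ± 2.43 normalised read counts per kb (SD, n = 3), followed by Tlr8 at 19.8 ± 1.8 and Tlr4 at 18.4 ± 2.23. Tlr1, Cd14, Tlr9 and Tlr2 lay at 14.2 ± 1.37, 14.1 ± 2.64, 12.8 ± 1.9 and 10.9 ± 0.286, Tlr13 at 6.89 ± 0.904 and Tlr6 at 3.21 ± 0.544. Tlr3, the receptor for double-stranded RNA, was lowest at 1.05 ± 0.43. Per kb of exonic length Tlr7 and Tlr3 were again first and last, at 227.0 ± 15.7 and 3.49 ± 1.43, but Cd14, a gene with little intron, moved from the fifth place to the eighth, at 14.9 ± 2.78. Chromatin RNA holds both introns and exons, so neither length is the exact one. At 0.5 h of LPS, Cd14 and Tlr2 stood at 204.0 ± 24.5 and 148.0 ± 24.8 normalised read counts per kb of gene span, above Tlr7 at 63.4 ± 5.02. Per kb of exonic length the order was the opposite, with Tlr7 at 408.0 ± 32.4, Tlr2 at 277.0 ± 46.3 and Cd14 at 216.0 ± 25.9.

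**Figure D1:**
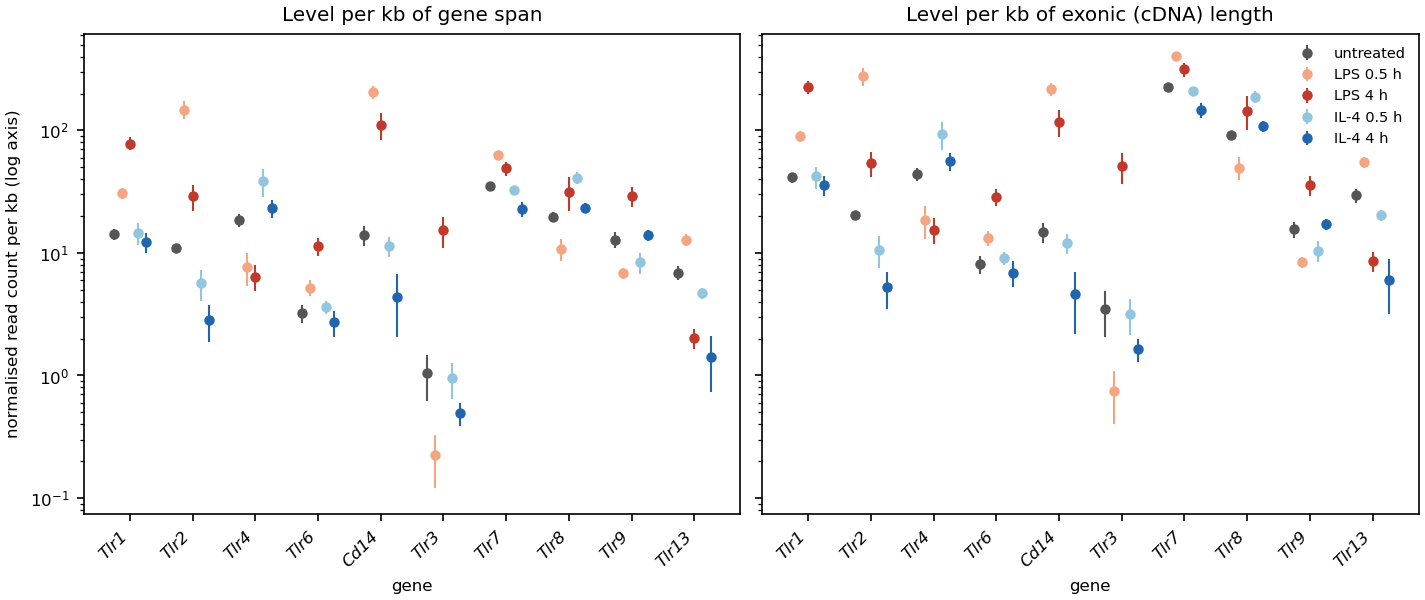
Mean level of each gene per kb of gene span and per kb of exonic length, in 2 panels with a log axis, in untreated cells and at 0.5 and 4 h of LPS or IL-4. Points are means and bars are SD of 3 replicates. In untreated cells Tlr7 (35.2 per kb of span) and Tlr3 (1.05) mark the ends of the range, and at 0.5 h of LPS Cd14 (204) and Tlr2 (148) are at the top per kb of span, but below Tlr7 per kb of exonic length.

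After LPS all 10 genes changed over the time course (limma moderated F test over the 4 time points, Benjamini-Hochberg adjusted p from 1.24e-10 for Cd14 to 7.68e-05 for Tlr4), where 87.6% of all tested genes did. At their largest change 6 genes were higher than in untreated cells (Tlr1, Tlr2, Tlr6, Cd14, Tlr3 and Tlr9) and 4 were lower (Tlr4, Tlr7, Tlr8 and Tlr13), and over all genes the shares were 32.9% and 54.7%. Tlr7 was nearly even, counted as lower by -0.85 at 1 h against 0.84 at 0.5 h. By time, 6 genes were higher and 4 lower at 0.5 h, where 19.6% and 34.4% of all genes were called in these directions (53.9% in either). At 1 h 4 were higher and 4 lower (24.8% and 39.0% of all genes), at 2 h 5 and 2 (26.9% and 39.0%), and at 4 h 8 and 2 (25.9% and 37.6%). Between successive times of LPS, 49.7%, 43.3% and 22.9% of all genes changed, and 63.0% did between 0.5 and 4 h. The median log2 change of the 10 genes was 0.76, -0.12, 0.74 and 1.26 at the 4 times. With equal totals the numbers higher and lower became 4 and 4 at 0.5 h, 3 and 5 after 1 h, 5 and 5 by 2 h and lastly 6 and 2 by 4 h. Under that scaling 1621 and 7258, 2157 and 7750, 2369 and 7976, and 2426 and 7810 of the 13901 genes were called higher and lower at these times. With median-of-ratios rescaling the 10 genes became 5 and 3 at 1 h, where 4313 and 4465 of all genes were called, and had the values above at the other times. Because the sources used here do not say that replicates of a group came from separate animals, these p-values measure the spread between samples, which may in part be technical.

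After IL-4, 7 of the 10 genes changed over the course in the same test, where 40.3% of all genes did. Tlr4 and Tlr8 were higher at their largest change, Tlr2, Cd14, Tlr7, Tlr9 and Tlr13 were lower, and Tlr1, Tlr3 and Tlr6 did not pass (limma adjusted p = 0.0771, 0.143 and 0.203). Over all genes 19.4% were higher and 20.9% lower. The number called was 5 without replicate 2, where Tlr4 and Cd14 no longer passed, and 4 without replicate 3, where Tlr4, Cd14 and Tlr9 did not. The genes called higher and lower over the course were also fewer, at 1164 and 1070 of 13901 without replicate 2 and 1157 and 1012 without replicate 3 against 2696 and 2910 with all samples. At 0.5 h the genes called were Tlr4 and Tlr8, both higher (8.15% of all genes were called higher), and at 1 h the same 2 were higher and 4 were lower (11.1% and 9.83%). At 2 h 5 genes were lower (13.2%) and at 4 h 4 (12.5%). At these times limma called 0 of the 10 genes higher, where 14.3% and 13.4% of all genes were called higher. It also called 0 of the 10 higher at an unadjusted p under 0.05. At 0.5 h limma called 0 of them lower (8.14% of all genes), against 2 at an unadjusted p under 0.05. Without replicate 1, and also with the replicate number as a block, Tlr4 was called higher at 2 h and Tlr4 and Tlr8 at 4 h. Between successive times of IL-4, 7.82%, 9.4% and 5.48% of all genes changed, and 27.3% did between 0.5 and 4 h. The median log2 change of the 10 genes was -0.11, -0.68, -0.77 and -0.43, while that of all genes was -0.023, -0.012, -0.001 and 0.017.

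**Figure D2:**
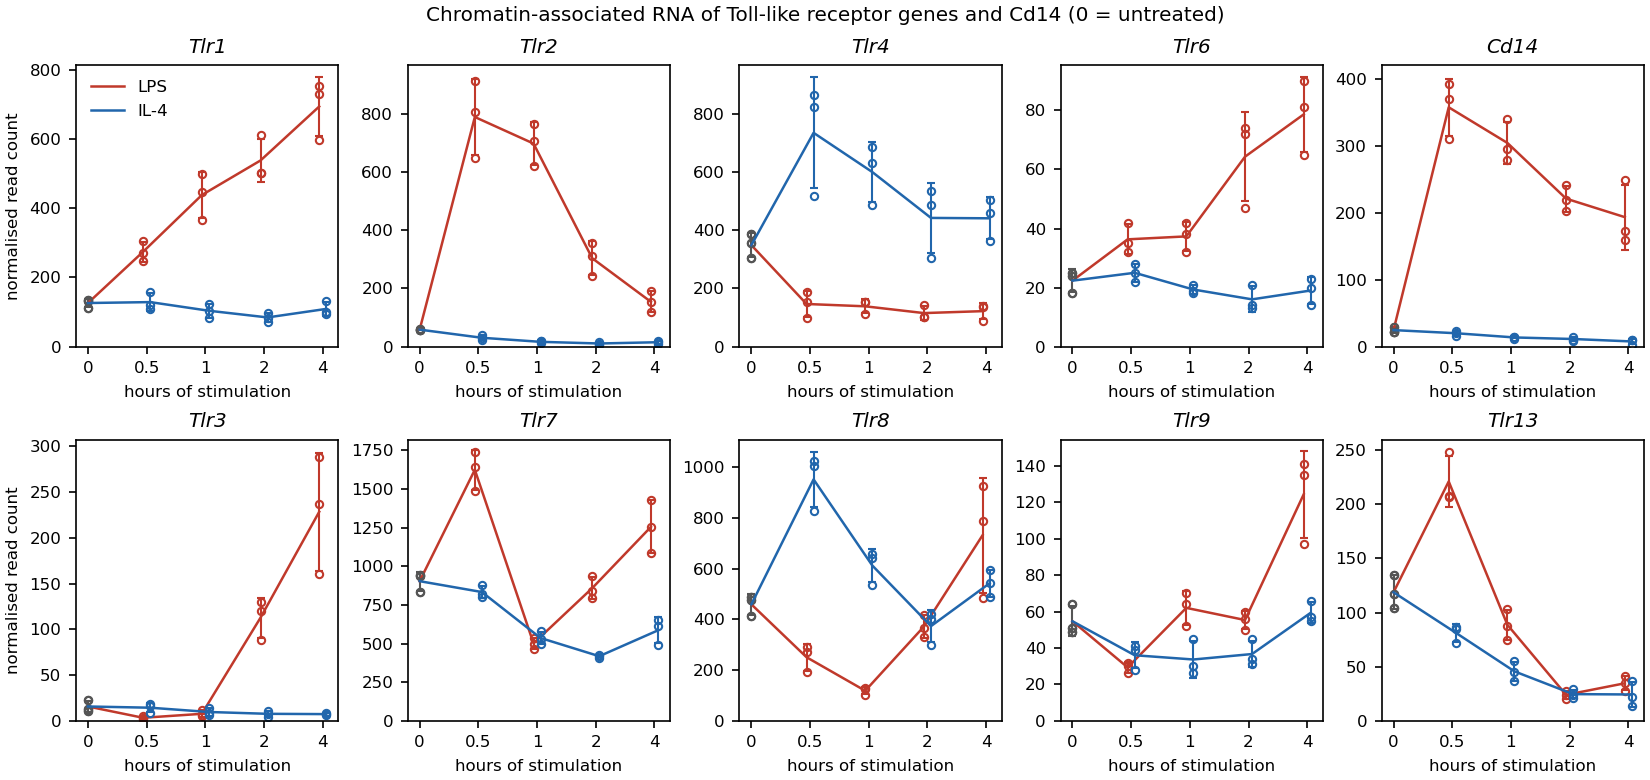
Normalised read counts of each gene by hours of LPS (red) or IL-4 (blue), with untreated cells at 0. Circles are single samples, lines join group means and bars are SD of 3 replicates. Tlr2 and Cd14 peak at 0.5 h of LPS (means of 790.0 and 358.0), Tlr1, Tlr6 and Tlr3 are highest at 4 h, and all LPS samples of Tlr4 lie below the untreated ones.

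Among the Toll-like receptors of the cell surface, Tlr2 (chr3:83836272-83841608, minus strand, GRCm38) had the largest early rise under LPS. It stood at 60, 58 and 57 normalised read counts in the 3 untreated replicates. LPS took it to 650, 913 and 807 at 0.5 h and to 620, 709 and 767 at 1 h, after which it came down to 242, 357 and 313 at 2 h and 118, 190 and 154 at 4 h. No LPS sample overlapped the untreated ones. The 13.5-fold rise at 0.5 h was 3.72 ± 0.18 on the log2 scale (SE, limma adjusted p = 2.54e-10), and the later fall from 0.5 to 4 h was -2.36 ± 0.18 (adjusted p = 1.84e-08). With IL-4 the same gene stood at 40, 28 and 23 at 0.5 h, 18, 20 and 11 after 1 h, 10, 15 and 7 by 2 h and lastly 10, 20 and 15 by 4 h. All IL-4 samples were below the lowest untreated one. The difference was -0.96 ± 0.31 at 0.5 h, short of the threshold at adjusted p = 0.0539, though it passed in 1 fit of all samples (adjusted p = 0.0177), with median-of-ratios rescaling (adjusted p = 0.0491) and with equal totals (-1.08, adjusted p = 0.0252). It also passed with a pseudocount of 8, a mean of at least 50 and the replicate block (adjusted p = 0.0201, 0.0359 and 0.018). It was not called with no filter, without replicate 1, 2 or 3, or with replicates 2 and 3 averaged. At 2 h the fall was -2.40 ± 0.31 (adjusted p = 6.02e-05). Tested directly, Tlr2 was 42.8-fold higher under LPS than under IL-4 at 1 h (log2 5.37 ± 0.27, adjusted p = 3.12e-14).

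The start of Tlr2 is shown because no other Toll-like receptor gene here had as large a rise at 0.5 h of LPS. Cd14 rose by 3.81 on the log2 scale at that time, but its start was not searched. RefSeq (GRCm38.p6) places the start of Tlr2 at base 83841608 of the minus strand, and the 250 bases before it and 50 after are chr3:83841559-83841858. Capitals mark matches to the NF-kB consensus (GGG, a purine, any 2 bases, 2 pyrimidines, CC; both strands searched), the motif of the NF-kB factors that TLR signalling activates. The capitals at the left hold 2 overlapping matches, which begin at -173 and -172, and the match at the right begins at -8.
Tlr2: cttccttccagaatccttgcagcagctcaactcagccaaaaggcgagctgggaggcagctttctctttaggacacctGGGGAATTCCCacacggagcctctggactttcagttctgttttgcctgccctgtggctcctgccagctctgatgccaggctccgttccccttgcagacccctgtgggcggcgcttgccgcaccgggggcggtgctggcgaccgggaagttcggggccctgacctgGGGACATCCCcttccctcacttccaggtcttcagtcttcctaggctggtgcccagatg
Such a match was present in 8.46% of the 32851 RefSeq promoter windows of this length. The motifs were chosen after the values were seen, and a match describes letters and not a bound site.

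Tlr1 (chr5:64924680-64933558) and Tlr6 (chr5:64953095-64960048), neighbours on the minus strand of chromosome 5 whose products are the partners of TLR2, rose under LPS and were highest at 4 h. Tlr1 was at 134, 112 and 132 normalised read counts in untreated cells and at 271, 305 and 247 after 0.5 h, 367, 448 and 500 after 1 h, 502, 611 and 502 after 2 h and 598, 732 and 753 after 4 h of LPS. Each LPS group lay above the untreated one, and the groups at 2 and 4 h overlapped at their edges. The change was 1.12 ± 0.14 at 0.5 h and 2.45 ± 0.14 at 4 h on the log2 scale (limma adjusted p = 1.19e-05 and 7.43e-10), and the increase between these times was 1.33 ± 0.14 (adjusted p = 8.96e-07). Tlr6 was at 18, 25 and 24 in untreated cells, 35, 32 and 42 at 0.5 h, 32, 38 and 42 after 1 h, 47, 72 and 74 by 2 h and lastly 65, 81 and 90 by 4 h of LPS, with no overlap between LPS and untreated samples. Its 3.52-fold rise at 4 h (1.77 ± 0.22, adjusted p = 4.44e-06) was larger than the rise at 0.5 h by 1.09 ± 0.22 (adjusted p = 0.000527). The early changes of Tlr6, 0.68 ± 0.22 at 0.5 h and 0.72 ± 0.22 at 1 h (adjusted p = 0.0172 and 0.0105), were 0.19 and 0.16 with equal totals (adjusted p = 0.488 and 0.543). They did not pass without replicate 2 (0.85 and 0.79, adjusted p = 0.0655 and 0.0686) or without replicate 3 (0.63 and 0.69, adjusted p = 0.133 and 0.0893). Tlr1 and Tlr6 are close paralogs, and the authors removed reads with several hits, so reads from identical stretches are missing from both.

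Under IL-4 neither gene passed the test over the course. Tlr1 ranged over 108 to 158, 84 to 124, 72 to 97 and 95 to 132 normalised read counts at the 4 times, and its change of -0.58 ± 0.18 at 2 h (limma adjusted p = 0.0299) was not called without replicate 2 or 3 (-0.55 in both, adjusted p = 0.186 and 0.206) or with no filter (adjusted p = 0.0833). Tlr6 ranged over 22 to 28, 18 to 21, 13 to 21 and 14 to 23 normalised read counts, overlapping the untreated range of 18 to 25 at every time. At 4 h LPS exceeded IL-4 by 2.67 ± 0.17 for Tlr1 and by 2.01 ± 0.23 for Tlr6 on the log2 scale (adjusted p = 1.47e-12 and 3.26e-08).

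Tlr6 has another RefSeq start inside the annotated gene, at base 64959166 of the minus strand. Its window (chr5:64959117-64959416) is shown because no other of the windows searched held an interferon-type repeat (GAAA, any 2 bases, GAAA, on either strand). Windows were searched for 7 of the 10 genes. Capitals mark 2 overlapping matches on the other strand, which begin at -116 and -110.
Tlr6: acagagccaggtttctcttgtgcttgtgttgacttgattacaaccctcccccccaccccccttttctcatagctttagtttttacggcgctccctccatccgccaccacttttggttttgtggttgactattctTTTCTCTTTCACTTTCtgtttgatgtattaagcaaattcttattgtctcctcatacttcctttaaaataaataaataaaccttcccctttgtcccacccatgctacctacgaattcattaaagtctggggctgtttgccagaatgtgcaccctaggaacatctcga
The repeat was found in 3.44% of the 32851 windows.

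Tlr4 (chr4:66827551-66846581, plus strand), the LPS receptor itself, was lower under LPS at all 4 times and higher under IL-4 at 0.5 and 1 h. Untreated replicates were at 304, 356 and 388 normalised read counts. LPS samples were at 98, 187 and 155 at 0.5 h, 111, 152 and 153 after 1 h, 101, 103 and 142 by 2 h and lastly 89, 141 and 136 by 4 h, all below the untreated samples. The fall was -1.29 ± 0.24 on the log2 scale at 0.5 h (limma adjusted p = 0.000333) and -1.53 ± 0.24 at 4 h (adjusted p = 4.3e-05), and the 4 LPS groups overlapped one another. IL-4 samples were at 517, 825 and 866 at 0.5 h and 486, 631 and 686 at 1 h, above all untreated samples, and at 306, 489 and 534 at 2 h and 362, 459 and 504 at 4 h, overlapping them. The 2.11-fold rise at 0.5 h was 1.04 ± 0.23 (adjusted p = 0.0066) and the rise at 1 h 0.77 ± 0.23 (adjusted p = 0.0296). These calls were lost without replicate 2 (0.96 and 0.75, adjusted p = 0.194 and 0.276) and without replicate 3 (0.99 and 0.75, adjusted p = 0.103 and 0.173), and that at 1 h also with no filter (adjusted p = 0.103). Replicate 1 held the lowest value in 9 of 9 groups, and without it the values of 0.46 at 2 h and 0.37 at 4 h of IL-4 were called (adjusted p = 0.00167 and 0.00563). Between the stimuli Tlr4 was lower under LPS at all 4 times, by 5.03-fold at 0.5 h (-2.33 ± 0.25, adjusted p = 3.93e-08) and 3.62-fold at 4 h (-1.86 ± 0.25, adjusted p = 6.05e-07).

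Cd14 (chr18:36725064-36726815, minus strand) rose within 0.5 h of LPS, as Tlr2 did. From 22, 22 and 30 normalised read counts in untreated cells it reached 310, 393 and 371 at 0.5 h of LPS, and it was at 295, 340 and 279 after 1 h, 219, 242 and 203 by 2 h and lastly 173, 249 and 159 by 4 h. All LPS samples lay far above the untreated ones. The 14.5-fold rise at 0.5 h was 3.81 ± 0.18 on the log2 scale (limma adjusted p = 1.44e-10), and the level at 4 h, 7.85-fold above untreated, was different from that at 0.5 h by -0.90 ± 0.18 (adjusted p = 0.000382). IL-4 samples were at 21, 16 and 23 at 0.5 h, 14, 15 and 12 after 1 h, 10, 15 and 9 by 2 h and lastly 3, 10 and 10 by 4 h. From 1 h on these samples were below all untreated ones. The fall reached -1.69 ± 0.35 at 4 h (adjusted p = 0.00253). At 2 h it was -1.07 ± 0.35 (adjusted p = 0.0342), which was not called without replicate 2 (-1.35, adjusted p = 0.0935), without replicate 3 (-0.79, adjusted p = 0.34) or with no filter on low values (adjusted p = 0.0868). At 4 h Cd14 was 25.3-fold higher under LPS than under IL-4 (4.60 ± 0.28, adjusted p = 5.83e-13).

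Of the endosomal receptors, Tlr3 (chr8:45395665-45410619, minus strand) had the widest range. Untreated samples held 11, 13 and 23 normalised read counts. At 0.5 h of LPS they held 3, 2 and 5, around the floor of 3, and at 1 h 12, 6 and 5, and then the gene rose to 88, 120 and 130 at 2 h and 160, 237 and 288 at 4 h. The untreated and 1 h samples overlapped, and the 2 and 4 h samples were above all others. The early fall was -1.94 ± 0.36 on the log2 scale (limma adjusted p = 0.000361) and the rise at 4 h was 14.6-fold (3.81 ± 0.36, adjusted p = 2e-07). Between 1 and 2 h the step was 3.78 ± 0.36 (adjusted p = 5.1e-07). The value at 1 h, -0.96 ± 0.36 (adjusted p = 0.0303), was not called with a pseudocount of 8 (adjusted p = 0.0519), with median-of-ratios rescaling (-0.72, adjusted p = 0.0853), with no filter (adjusted p = 0.0819), without replicate 2 (-0.94, adjusted p = 0.153) or without replicate 3 (-0.44, adjusted p = 0.384). IL-4 samples ranged over 9 to 18, 6 to 14, 4 to 11 and 6 to 9 at the 4 times, with no call at any of them when the replicate number was left out of the fit. At 4 h the direct difference between LPS and IL-4 was 4.76 ± 0.39 (adjusted p = 1.17e-10).

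RefSeq gives Tlr3 a start at base 45410380 of the minus strand, inside the gene as annotated, and its window is chr8:45410331-45410630. It is shown because, of the 7 genes whose windows were searched, Tlr3 and Tlr2 were those with an NF-kB match. Of these, Tlr2 was highest at 0.5 h and Tlr3 at 4 h of LPS. The match in capitals begins at -211.
Tlr3: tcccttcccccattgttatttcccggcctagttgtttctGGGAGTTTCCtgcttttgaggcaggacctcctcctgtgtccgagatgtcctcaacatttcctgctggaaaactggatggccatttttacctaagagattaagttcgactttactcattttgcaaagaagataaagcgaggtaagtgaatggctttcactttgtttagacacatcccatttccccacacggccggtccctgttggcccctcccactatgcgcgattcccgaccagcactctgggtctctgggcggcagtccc

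Tlr7 (chrX:167304926-167330571, minus strand), a receptor for single-stranded RNA, rose, fell and rose again under LPS. It was at 943, 832 and 937 normalised read counts in untreated cells, 1487, 1742 and 1646 at 0.5 h, 538, 498 and 468 after 1 h, 797, 842 and 938 by 2 h and lastly 1086, 1252 and 1428 by 4 h. Neither the 0.5 h nor the 1 h samples overlapped the untreated ones, and those at 2 h did. The changes were 0.84 ± 0.12 at 0.5 h (limma adjusted p = 2.38e-05) and -0.85 ± 0.12 at 1 h (adjusted p = 1.48e-05) on the log2 scale, and the step between them was -1.69 ± 0.12 (adjusted p = 2.84e-08). The rises from 1 to 2 h and from 2 to 4 h were 0.77 ± 0.12 and 0.54 ± 0.12 (adjusted p = 6.05e-05 and 0.00356). Whether the gene was above its starting level later on depended on the scale. The change of 0.47 ± 0.12 at 4 h (adjusted p = 0.00276) became -0.14 with equal totals (adjusted p = 0.294), and it was 0.41 without replicate 2 and 0.40 without replicate 3 (adjusted p = 0.0902 and 0.0583). At 2 h the value was -0.07 ± 0.12 as deposited, 0.17 after median-of-ratios rescaling and -0.73 with equal totals, of which the last was called (adjusted p = 5.12e-05).

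Under IL-4 Tlr7 went from 880, 821 and 800 at 0.5 h to 579, 500 and 529 after 1 h and 409, 424 and 422 by 2 h, and it stood at 651, 492 and 614 by 4 h. From 1 h on all IL-4 samples of Tlr7 were below the untreated ones. The fall at 2 h was -1.11 ± 0.10 (limma adjusted p = 1.69e-06), and the increase from 2 to 4 h, 0.47 ± 0.10, was past the threshold too (adjusted p = 0.0132). At 1 h the difference between LPS and IL-4 was -0.10 ± 0.11 (adjusted p = 0.46), turning to 0.20 with median-of-ratios rescaling and -0.57 with equal totals. At 2 and 4 h LPS was higher by 1.03 ± 0.11 and 1.10 ± 0.11 (adjusted p = 1.4e-08 and 4.75e-09).

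Tlr8 (chrX:167241123-167264329, minus strand) is the neighbour of Tlr7. Untreated samples were at 412, 477 and 490 normalised read counts. LPS lowered it to 191, 291 and 271 at 0.5 h and 102, 129 and 125 at 1 h, below all untreated samples, and it stood at 332, 365 and 419 at 2 h and 483, 788 and 927 at 4 h. The change was -0.89 ± 0.21 at 0.5 h and -1.95 ± 0.21 at 1 h on the log2 scale (limma adjusted p = 0.00241 and 1.21e-06), and the step from 1 to 2 h was 1.64 ± 0.21 (adjusted p = 1.2e-05). At 2 h the value of -0.31 ± 0.21 (adjusted p = 0.214) was -0.97 and called with equal totals (adjusted p = 0.000926). The value at 4 h, 0.62 ± 0.21 (adjusted p = 0.0181), came from samples that overlapped the untreated range. It was 0.01 with equal totals (adjusted p = 0.955), 0.57 without replicate 2 (adjusted p = 0.152), 0.48 without replicate 3 (adjusted p = 0.175) and missed the threshold with no filter (adjusted p = 0.0616).

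IL-4 raised Tlr8 to 827, 1027 and 1004 at 0.5 h (1.05 ± 0.14, limma adjusted p = 0.000103), above all untreated samples. By 1 h it was at 537, 659 and 643, a change of 0.41 ± 0.14 (adjusted p = 0.0464). This was not called without replicate 2 (0.39, adjusted p = 0.33), without replicate 3 (0.42, adjusted p = 0.222), with no filter (adjusted p = 0.126), with equal totals (0.31, adjusted p = 0.109) or in 1 fit of all samples (adjusted p = 0.168). At 2 and 4 h of IL-4 Tlr8 ranged over 301 to 420 and 489 to 597. Without replicate 1, the lowest in 9 of 9 groups, the values of -0.31 at 2 h of LPS and of -0.24 and 0.24 at 2 and 4 h of IL-4 were called (adjusted p = 0.0231, 0.0186 and 0.0201). Tlr8 was 5.15-fold lower under LPS than under IL-4 at 1 h (-2.36 ± 0.19, adjusted p = 1.87e-10). At 2 h the means were 372.0 and 373.7, a log2 difference of 0.00 ± 0.19 that was -0.63 with equal totals (adjusted p = 0.00534).

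The Tlr8 window (chrX:167264280-167264579) held neither an NF-kB match nor an interferon-type match. It was the only one of the windows searched with a STAT6-type motif (TTC, any 4 bases, GAA), STAT6 being the factor that IL-4 activates. The motif, in capitals, begins at -77 and is shown with 10 bases on each side (chrX:167264387-167264416).
Tlr8: taaatgacttTTCCTCTGAAttcagtttcg
It was found in 6.95% of the 32851 windows. The shorter STAT motif TTCNNNGAA, found in 8.3%, was present in windows of Tlr1, Tlr6 and Tlr8. The AP-1 motif TGANTCA (7.81%) was present in that of Tlr9. GAGGAA, a PU.1-type motif (28.3%), was present in those of Tlr1, Tlr8, Tlr9 and Tlr13, and in Tlr8 it shares letters with the STAT6-type match. RefSeq windows were searched for 7 of the 10 genes. The starts of Tlr4, Tlr7 and Cd14 were not searched, so nothing is said here of motifs in them.

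Tlr9 (chr9:106222598-106226876, plus strand), the receptor for unmethylated CpG DNA, was at 49, 51 and 64 normalised read counts in untreated cells. At 0.5 h of LPS it was at 32, 26 and 30, at 1 h at 52, 64 and 70, at 2 h at 50, 56 and 60 and at 4 h at 97, 141 and 135. The 0.5 h samples were below all untreated ones, those at 1 and 2 h overlapped them, and those at 4 h were above them. The early fall was -0.87 ± 0.19 on the log2 scale (limma adjusted p = 0.00121), the rise at 4 h was 1.16 ± 0.19 (adjusted p = 6.62e-05), and the step from 2 to 4 h was 1.14 ± 0.19 (adjusted p = 0.000469). In between, the values of 0.18 at 1 h and 0.02 at 2 h turned to -0.39 and -0.62 with equal totals (adjusted p = 0.0774 and 0.00829), and that at 1 h was called higher with median-of-ratios rescaling (0.44, adjusted p = 0.0372). IL-4 samples ranged over 28 to 41, 26 to 45, 31 to 45 and 55 to 66 at the 4 times. The fall at 1 h of -0.71 ± 0.22 (adjusted p = 0.0331) was not called without replicate 1 (-0.72, adjusted p = 0.0794), without replicate 3 (-0.43, adjusted p = 0.436) or with no filter (adjusted p = 0.0782), while without replicate 1 that at 2 h was (-0.80, adjusted p = 0.0485). With rescaling Tlr9 was also called lower at 0.5 h of IL-4 (equal totals, -0.72, adjusted p = 0.0292) and at 2 h (median of ratios, -0.60, adjusted p = 0.0488). At 4 h Tlr9 was higher under LPS than under IL-4 by 1.04 ± 0.21 (adjusted p = 0.00011), a difference of 0.42 with equal totals (adjusted p = 0.0665).

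Tlr13 (chrX:106143275-106160493, plus strand), the receptor for bacterial ribosomal RNA, had a short rise before a deep fall under LPS. Untreated samples were at 117, 104 and 135 normalised read counts, and LPS samples at 208, 248 and 207 at 0.5 h, 88, 103 and 75 after 1 h, 20, 28 and 24 by 2 h and lastly 28, 35 and 41 by 4 h. Each of the 4 LPS groups lay apart from the untreated one, although the highest sample at 1 h (103) was next to the lowest untreated one (104). The rise was 0.89 ± 0.19 on the log2 scale (limma adjusted p = 0.000956), or 0.39 with equal totals (adjusted p = 0.0889), and the fall at 2 h was 4.95-fold (-2.26 ± 0.19, adjusted p = 4.21e-08). At 1 h the value was -0.42 ± 0.19 (adjusted p = 0.0635), and -1.0 with equal totals (adjusted p = 0.000244). IL-4 samples were at 72, 85 and 87 at 0.5 h, 45, 55 and 37 after 1 h, 29, 21 and 24 by 2 h and lastly 37, 22 and 14 by 4 h, all below the untreated ones. The change was -0.54 ± 0.27 at 0.5 h (adjusted p = 0.221) and -2.34 ± 0.27 at 4 h (adjusted p = 2.29e-05).

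Between the stimuli Tlr13 was higher under LPS at 0.5 h by 1.43 ± 0.24 on the log2 scale (limma adjusted p = 2.46e-05). At 1 h the difference was 0.95 ± 0.24 (adjusted p = 0.00151), or 0.48 with equal totals (adjusted p = 0.0878), and at 2 h it was -0.04 ± 0.24 (adjusted p = 0.895), turning to 0.23 with median-of-ratios rescaling. The difference of 0.58 ± 0.24 at 4 h (adjusted p = 0.0378) came from overlapping samples and was -0.02 with equal totals (adjusted p = 0.942). It was not called without replicate 2 (0.55, adjusted p = 0.192), without replicate 3 (0.13, adjusted p = 0.717) or with no filter (adjusted p = 0.0631).

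Set against each other at matched times in 1 fit of all 27 samples, LPS and IL-4 gave different levels of 8 genes at 0.5 h (53.8% of all genes), 8 at 1 h (64.5%), 8 at 2 h (68.6%) and 9 at 4 h (68.0%). The genes higher under LPS numbered 5, 6, 7 and 8 at the 4 times, where 18.0%, 24.0%, 26.4% and 26.1% of all genes were. Those lower under LPS numbered 3, 2, 1 and 1 (over all genes 35.8%, 40.5%, 42.3% and 41.9%). Tlr1, Tlr2 and Cd14 were higher under LPS at every time and Tlr4 was lower at every time, also under both rescalings. Tlr8 was lower under LPS at 0.5 and 1 h, and Tlr3 at 0.5 h. With equal totals the numbers higher and lower under LPS became 5 and 4 at 0.5 h, 3 and 3 after 1 h, 6 and 3 by 2 h and lastly 6 and 1 by 4 h. Over the 13901 genes the numbers under this scaling were 1648 and 6987, 2193 and 7663, 2423 and 8335, and 2458 and 8403. Equal totals also brought calls for Tlr9 at 0.5 h (-0.64, limma adjusted p = 0.00948), Tlr7 at 1 h (-0.57, 8.8e-05) and Tlr13 at 2 h (-0.64, 0.0213). Median-of-ratios rescaling brought them for Tlr6 at 0.5 h (0.77, adjusted p = 0.00266) and Tlr8 at 4 h (0.68, 0.00119). The Tlr9 difference of 0.59 ± 0.21 at 2 h (limma adjusted p = 0.0141) was -0.02 with equal totals (adjusted p = 0.921), and it was not called without replicate 2 (0.48, adjusted p = 0.112) or replicate 3 (0.49, adjusted p = 0.151). At 1 h the differences of Tlr6 and Tlr9, 0.91 ± 0.23 and 0.89 ± 0.21 (adjusted p = 0.00115 and 0.000637), were not called without replicate 3 (0.77 and 0.64, adjusted p = 0.0588 and 0.0716) or with equal totals (0.45 and 0.42, adjusted p = 0.0798 and 0.0741). Without replicate 1 the Tlr8 difference at 4 h was called (0.59, adjusted p = 1.14e-05). Both stimuli share the untreated samples, so their changes against untreated cells are not independent of each other.

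**Figure D3:**
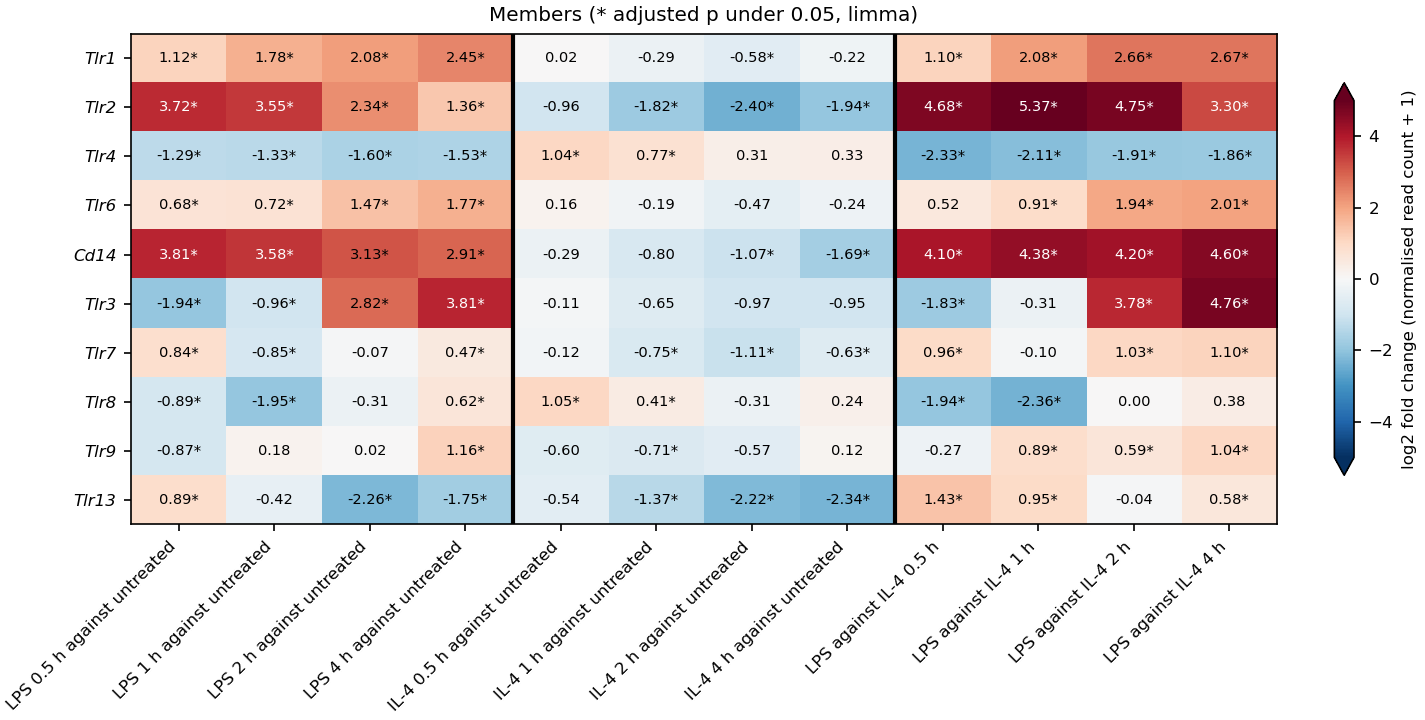
Log2 fold changes of the 10 genes (rows) after LPS or IL-4 against untreated cells and between LPS and IL-4 at the same time (columns), on normalised read counts plus 1. Red is higher and blue lower, and asterisks mark limma adjusted p under 0.05. Tlr2 reaches 5.37 between the stimuli at 1 h, and the Tlr4 row is blue under LPS and red under IL-4.

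When the 9 group means are ranked, LPS groups hold the first 4 places for Tlr1, Tlr2, Tlr6 and Cd14 and the last 4 for Tlr4. In Tlr1 the 5 other groups overlapped their neighbours in this order, and the LPS groups were apart except for 2 and 4 h. For Tlr2 the neighbours from 1 h of LPS down to 1 h of IL-4 were apart, while the pair at the top and the 3 groups at the bottom overlapped. For Tlr4 the single gap lay between untreated cells, at a mean of 349.3, and 0.5 h of LPS, at 146.7. For Tlr3 the groups at 4 and 2 h of LPS stood apart at the top, the group at 0.5 h of LPS stood apart at the bottom, and the 6 between overlapped their neighbours. Tlr8 ranged from 952.7 at 0.5 h of IL-4 to 118.7 at 1 h of LPS, with all neighbours from 0.5 h of IL-4 to 2 h of LPS overlapping. Over the 9 groups the coefficient of variation between replicates had a median of 7.46% for Tlr7 and 41.0% for Tlr3, the smallest and the largest of the 10 genes.

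Across the 9 group means on the log2 scale, Pearson's r was 0.97 between Tlr2 and Cd14 and 0.97 between Tlr1 and Tlr6, and it was -0.92 between Tlr4 and Cd14. The neighbours Tlr7 and Tlr8 had an r of 0.15. These values describe 9 means whose samples were normalised together, 4 of them from each stimulus. Among all tested genes the 3 most like Cd14 were Dusp1, Ehd1 and Rap1b (r = 0.997, 0.996 and 0.995), and those most like Tlr2 were Ankrd33b, Cxcl16 and Smim3 (0.991, 0.988 and 0.988). For Tlr3 they were Fcgr1, Tmem67 and Trim34a (0.992, 0.988 and 0.985), and for Tlr1 Dcbld2, A230098N10Rik and Dram1 (0.997, 0.994 and 0.993). Cirbp, Nlrx1 and Cnr2 were nearest to Tlr4 (0.989, 0.985 and 0.985). The nearest gene was Gm46295 for Tlr6 (0.991), Gpr141 for Tlr7 (0.953), A530072M11Rik for Tlr8 (0.952), Mss51 for Tlr9 (0.954) and Numb for Tlr13 (0.962).

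The other mouse Toll-like receptor genes were at low levels. Tlr11 and Tlr12 had at most 2 normalised read counts in any sample and were not tested. Tlr5, the flagellin receptor, was at 15, 20 and 16 in untreated cells and at 8, 19 and 9 at 0.5 h, 3, 1 and 3 after 1 h, 1, 3 and 0 by 2 h and lastly 0, 0 and 0 by 4 h of LPS. With a floor of 3 normalised read counts per library it was at least 5.67-fold lower at 4 h of LPS (limma adjusted p = 1.69e-06). At 4 h of IL-4 it was at 2, 4 and 3 (adjusted p = 0.00014).

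Of 12 genes for receptor partners and trafficking, 11 were tested. Over the LPS course 3 were higher and 7 lower at their largest change, with a list median of -0.79 on the log2 scale, and over the IL-4 course 2 were higher and 5 lower (-0.46). Among all tested genes 32.9% were higher and 54.7% lower over the LPS course, with a median of -1.002, and 19.4% and 20.9% over the IL-4 course, with a median of -0.159. Ly96, which encodes MD-2, rose from 119, 114 and 110 normalised read counts to 311, 249 and 263 at 2 h of LPS (1.25 ± 0.17, limma adjusted p = 1.15e-05) and did not pass under IL-4 (F test adjusted p = 0.351). Unc93b1, the chaperone that carries endosomal receptors out of the endoplasmic reticulum, went from 837, 754 and 716 to 508, 426 and 401 at 1 h of LPS (-0.79 ± 0.12, adjusted p = 3.34e-05) and to 948, 1012 and 1021 at 4 h (0.37 ± 0.12, adjusted p = 0.0129). Slc15a4, an endolysosomal transporter, went from 374, 359 and 366 to 217, 176 and 153 at 0.5 h of IL-4 (-1.02 ± 0.11, adjusted p = 2.02e-05) and to 518, 576 and 461 at 4 h of LPS (0.49 ± 0.12, adjusted p = 0.00226). No rescaled values are given here for partner and adaptor genes. Small changes under LPS, such as those of Unc93b1 and Slc15a4 at 4 h, may depend on the scale. For Tlr7 the value at that time became -0.14 with equal totals.

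The products of Cd180 and Ly86, RP105 and MD-1, form a surface complex related to TLR4 and MD-2, and the 2 genes went in opposite directions under IL-4. Cd180 fell from 197, 239 and 313 to 56, 62 and 57 at 2 h (-2.05 ± 0.19, limma adjusted p = 2.31e-06), while Ly86 rose from 1413, 1047 and 1186 to 3926, 3151 and 3202 (1.5 ± 0.16, adjusted p = 1.29e-05). Under LPS Ly86 was at 237, 124 and 141 at 1 h (-2.90 ± 0.21, adjusted p = 1.3e-08) and at 2181, 2046 and 2107 at 2 h. Cd36, a scavenger receptor that assists TLR2 and TLR6, was at 334, 274 and 356 in untreated cells and at 1827, 3620 and 4604 after 0.5 h of IL-4 (3.29 ± 0.34, adjusted p = 1.4e-05). By 2 and 4 h of IL-4 it was below its untreated level (-1.09 ± 0.34 and -1.21 ± 0.34, adjusted p = 0.0297 and 0.0183). At 0.5 h of LPS Cd36 was at 356, 599 and 950 (0.88 ± 0.35, adjusted p = 0.0439), where the lowest sample equalled the highest untreated one. At 2 h of LPS it fell to 34, 60 and 51 (-2.74 ± 0.35, adjusted p = 4.89e-06).

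Of 16 genes for adaptors and proximal signalling, 14 were tested. Over the LPS course 9 were higher and 3 lower (list median 1.39 on the log2 scale), and over the IL-4 course 2 were higher and 4 lower (0.02). Over all tested genes the values were 32.9% higher, 54.7% lower and a median of -1.002 for LPS, and 19.4%, 20.9% and -0.159 for IL-4. Myd88, the adaptor of all these receptors except TLR3, rose from 18, 18 and 16 normalised read counts to 81, 82 and 77 at 0.5 h of LPS and to 158, 184 and 190 at 2 h (3.28 ± 0.16, limma adjusted p = 1.19e-10). Ticam1, which encodes TRIF, rose from 44, 48 and 63 to 189, 188 and 171 at 1 h (1.82 ± 0.22, adjusted p = 3.16e-06). Neither passed under IL-4 (F test adjusted p = 0.443 and 0.491). Tirap, which links MyD88 to TLR2 and TLR4, was at 37, 39 and 47 in untreated cells, at 11, 11 and 18 at 0.5 h of LPS (-1.58 ± 0.26, adjusted p = 0.000113) and at 78, 116 and 107 at 2 h (1.26 ± 0.26, adjusted p = 0.000542). Ticam2, whose product TRAM links TRIF to TLR4, fell from 96, 103 and 123 to 50, 26 and 38 at 0.5 h of IL-4 (-1.51 ± 0.21, adjusted p = 0.000161).

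Scimp, a transmembrane adaptor of TLR signalling, rose under both stimuli. It was at 1, 4 and 5 normalised read counts in untreated cells, at 41, 42 and 41 by 0.5 h of IL-4 (3.43 ± 0.35, limma adjusted p = 1.1e-05) and at 3, 3 and 2 by 0.5 h of LPS, where it then reached 60, 116 and 106 at 4 h (4.55 ± 0.42, adjusted p = 1.25e-07). Among the kinases, Irak2 went from 408, 335 and 319 up to 3507, 3153 and 2742 at 4 h of LPS (3.14 ± 0.13, adjusted p = 1.33e-11) and down to 192, 141 and 142 at 1 h of IL-4 (-1.16 ± 0.14, adjusted p = 2.82e-05). Irak4 fell from 147, 145 and 171 to 35, 52 and 58 at 1 h of LPS (-1.68 ± 0.26, adjusted p = 4.29e-05). Irak3, an inhibitor of this pathway, was at 250, 232 and 260 in untreated cells, 1801, 1543 and 1557 at 4 h of LPS (2.72 ± 0.14, adjusted p = 1.3e-10) and 121, 140 and 150 at 4 h of IL-4 (-0.85 ± 0.09, adjusted p = 6.5e-06). Traf6, the ubiquitin ligase downstream of the IRAK kinases, rose under IL-4 from 100, 84 and 115 to 185, 216 and 205 at 0.5 h (1.02 ± 0.18, adjusted p = 0.00114). Tirap and Irak3 overlap other annotated genes, whose reads may be included, and none of the 10 genes described here overlaps another annotated gene.

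**Figure D4:**
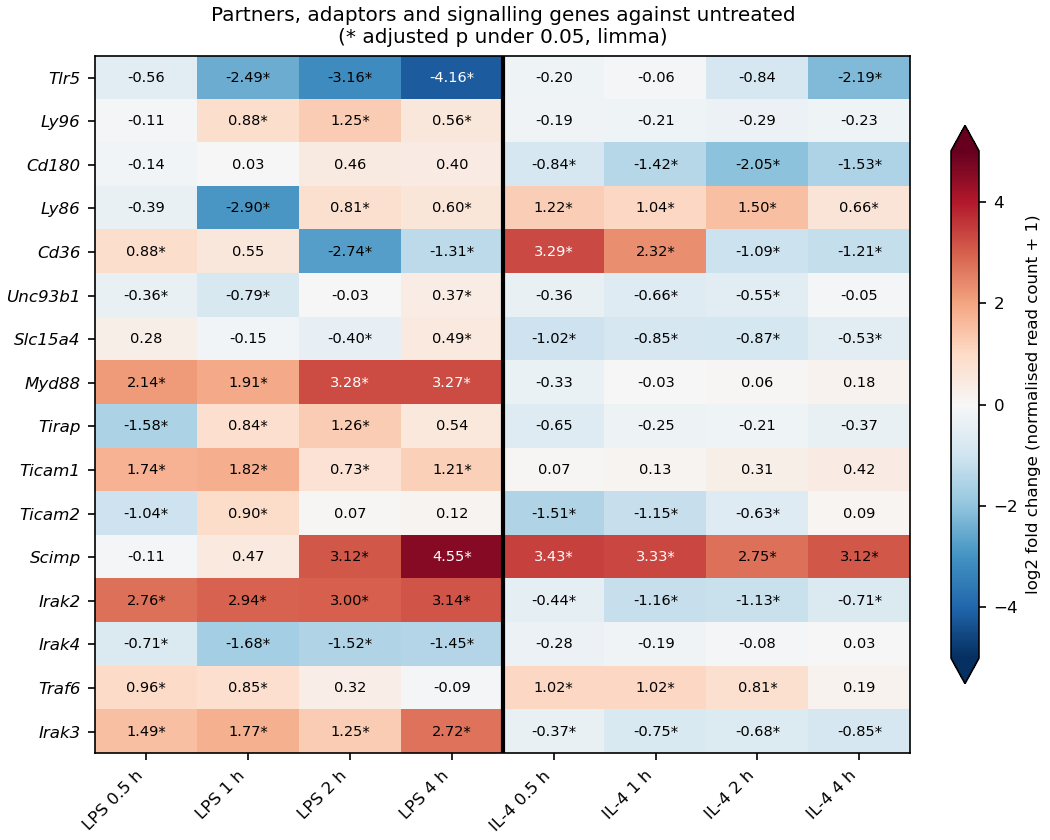
Log2 fold changes against untreated cells, on normalised read counts plus 1, for Tlr5 and for partner, adaptor and signalling genes (rows) at 4 times of LPS and IL-4 (columns). Red is higher, blue lower, and asterisks mark limma adjusted p under 0.05. Myd88 and Irak2 are red across LPS, Cd180 is blue across IL-4, and Scimp is red at 2 and 4 h of LPS (3.12 and 4.55) and at all times of IL-4. The Tlr5 value at 4 h of LPS depends on the pseudocount, since all 3 samples were at 0.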

How the data were processed

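Chromatin-associated RNA of 27 BMDM samples was sequenced by the authors as random-primed Smart-seq2 libraries with single-end reads. Per the labels and the study's methods, reads were aligned to mm10 with TopHat2 2.1.1, those with several hits or in blacklisted regions were removed with samtools and bedtools 2.29.2, the rest were counted per gene with R/Bioconductor packages, and samples were scaled on invariant genes (GeneralNormalizer). The submitters' processing notes also name DESeq2 and R 3.6.2, with no role. The deposited values, a score rather than raw counts, are the scaled counts as the authors rounded them, called normalised read counts here. Raw depth and the strand setting are not given in the sources used here, so no counting intervals are given. All 27 columns of sample values were used.

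A gene was tested if 3 or more of the 27 samples reached a value of 10 (13901 of 45070 genes, holding 99.6% of all values). The test was limma 3.58.1 (R 4.3.3), with a mean-variance trend, on log2(value + 1). Each course was fitted on 15 samples with a moderated F test and contrasts, LPS was compared with IL-4 in 1 fit of 27, and p-values were Benjamini-Hochberg adjusted over all tested genes at a threshold of 0.05. Fold changes are ratios of mean normalised read counts, and log2 changes on the scale with the pseudocount understate those of low genes. The code was tested on simulated data. The study's impulse model, which needs raw counts, was not run.

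The genes and lists were chosen with earlier results of these data known. All 10 genes are described. From the partner and adaptor lists Ly96, Unc93b1, Myd88, Ticam1, Tirap, Irak3, Tlr5, Tlr11 and Tlr12 are named, with the 2 largest rises and 2 largest falls per list and stimulus. Likeness is Pearson's r over the 9 group means of log2(value + 1). Alternatives were a pseudocount of 8, no filter, a mean of at least 50, median-of-ratios rescaling, equal totals, the replicate number as a block, leaving out each replicate number, averaging replicates 2 and 3, and 1 fit of all samples. Promoter windows are RefSeq sequences of GRCm38.p6.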

Additional observations from a re-analysis of the deposited data

Results flagged for a closer look

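In 5 genes the LPS response pointed in opposite directions at different times, with a tested difference between the times (limma, Benjamini-Hochberg adjusted over all tested genes). A pair of times was listed only if both were already called in opposite directions and the difference passed too. Its p-value is therefore no further support. Tlr3 was lower than in untreated cells at 0.5 h (-1.94 on the log2 scale) and higher at 4 h (3.81), a difference of 5.74 (adjusted p = 1.79e-09), and the step from 1 h (-0.96) to 2 h (2.82) was 3.78 (adjusted p = 5.1e-07). Tlr8 went from -0.89 at 0.5 h to 0.62 at 4 h, a difference of 1.51 (adjusted p = 1.47e-05). Its value at 4 h was 0.01 with equal totals and was not called without replicate 2 or 3. Tlr9 went from -0.87 to 1.16, a difference of 2.03 (adjusted p = 1.65e-07). Tlr13 went the other way, from 0.89 at 0.5 h to -1.75 at 4 h, a difference of -2.65 (adjusted p = 7.44e-09). With equal totals its value at 0.5 h was 0.39 and not called (adjusted p = 0.0889).

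Tlr7 turned within a single step, from 0.84 at 0.5 h to -0.85 at 1 h of LPS, a difference of -1.69 (adjusted p = 2.84e-08). These differences are between time points that share the same untreated samples, which cancel in the difference itself.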

How the results depend on the processing

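Of 120 changes (10 genes, 12 contrasts), 85 passed the threshold, and 67 of these passed in every alternative that tested them, while 18 were lost or reversed in at least 1. Over all tested genes 16.3% to 27.6% were called at the 4 times of IL-4, and 53.8% to 68.6% in the contrasts with LPS. All 10 genes changed over the LPS course in every alternative, or 8 of the 8 tested with a mean of at least 50. In the main test 87.6% of all genes did. Over the IL-4 course the number was 7, and it was 4 with replicates 2 and 3 averaged, 9 with the replicate block and 4 to 8 when 1 replicate number was left out. The calls over all 13901 genes moved too. Those higher and lower over this course were 2696 and 2910 in the main test, 1287 and 1216 with the average and 3382 and 4027 with the block. Without replicates 1, 2 and 3 in turn they were 2758 and 3788, 1164 and 1070, and 1157 and 1012. Leaving out 1 replicate number gave 8 genes at 0.5 h between LPS and IL-4 each time, then 6 to 8 for 1 h, 7 to 8 for 2 h and 8 to 10 for 4 h, and all other alternatives gave 6 to 10. Over all genes, those higher and lower under LPS at 4 h were 3625 and 5827 in the main test. Without replicates 1, 2 and 3 in turn they were 3729 and 6071, 3136 and 4877, and 3155 and 4628. Signs turned mostly with the scaling. With equal totals the LPS changes became -0.39 at 1 h and -0.62 at 2 h for Tlr9 and -0.14 at 4 h for Tlr7, the IL-4 change of Tlr1 at 0.5 h became -0.11, and the differences between LPS and IL-4 became -0.63 at 2 h and -0.24 at 4 h for Tlr8, -0.02 at 2 h for Tlr9 and -0.02 at 4 h for Tlr13. With median-of-ratios rescaling Tlr7 became 0.17 at 2 h of LPS and 0.2 between the stimuli at 1 h, and Tlr13 became 0.23 between them at 2 h. When 1 replicate number was left out, changes near 0 turned sign, over ranges of -0.12 to 0.01 for Tlr7 and -0.03 to 0.08 for Tlr9 at 2 h of LPS, -0.09 to 0.09 for Tlr1 and -0.38 to 0.09 for Tlr3 at 0.5 h of IL-4, and, between the stimuli, -0.66 to 0.19 for Tlr3 at 1 h and -0.07 to 0.07 for Tlr8 and -0.26 to 0.2 for Tlr13 at 2 h. Of these reversed values 3 had been called, all with equal totals (Tlr7 at 4 h of LPS, Tlr9 at 2 h and Tlr13 at 4 h between the stimuli). The rescalings differ by construction in the total they fix; beyond that the cause was not tested.

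Samples with the same replicate number were compared by the correlation of their deviations from the group means. These ran from 0.351 to 0.713 for number 1, 0.09 to 0.361 for number 2 and 0.202 to 0.454 for number 3 (36 pairs each), all above 0, and 19 of 27 samples were closest to their own number. The rule used here to treat samples as paired asked for every correlation to be over 0.1, so the replicate number stayed out of the main test. With the replicate block no called change was lost, and 11 of the 35 that had not passed did. The block also raised the calls over all 13901 genes. At 2 h of IL-4 those higher and lower went from 1993 and 1838 to 2457 and 2643, and at 4 h from 1856 and 1742 to 2398 and 2519. Under IL-4 the 11 include Tlr3 at 2 h (-0.97, limma adjusted p = 0.0242) and 4 h (-0.95, 0.0273). Tlr4 was among them at 2 h (0.31, 0.0129) and 4 h (0.33, 0.00895), and Tlr8 at 2 h (-0.31, 0.00154) and 4 h (0.24, 0.00926). Tlr1 and Tlr3 joined the genes changed over the IL-4 course. The depth behind the deposited values is unknown, which limits what can be said of low genes such as Tlr3 and Cd14 under IL-4.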
